A study of Mus musculus with 10 samples.

Results

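Liver tumors of mice that expressed both *MYC* and *Twist1* in hepatocytes (*MYC*/*Twist1*-HCC) were described on their own, as 5 tumors of the 10 sequenced. The members were all samples whose label names both transgenes, and no measured value was used to choose them. Tumors are numbered 1 to 5 as in the labels. The other 5 samples came from tumors with *MYC* alone (*MYC*-HCC) and were used only for the background level of Twist1. All mice were on the FVB/N background and carried LAP-tTA, in which the liver-enriched activator promoter drives the tetracycline transactivator, together with TRE-*MYC*, a *MYC* transgene under the tetracycline-responsive element. The *MYC*/*Twist1* mice also carried TRE-*Twist1*/Luc, a bidirectional element driving mouse *Twist1* and luciferase, which the *MYC* mice lacked. Doxycycline, which holds the system off, was given in the drinking water until early adulthood and then withdrawn, and animals were killed when tumor burden made them ill. Age at collection, sex and tumor number were not given in the sources used here, and neither was whether the 5 tumors came from 5 different animals. Each difference described below is therefore a spread between 5 samples of one group, with no test, since a group taken alone holds no comparison.

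TWIST1 is a basic helix-loop-helix transcription factor that pairs with E proteins and binds E-box sequences. It acts in the embryonic mesoderm and is known in cancer for its part in epithelial-mesenchymal transition, in which epithelial cells lose their junctions and become motile. MYC is a helix-loop-helix leucine zipper factor that pairs with MAX, binds E-boxes of the sequence CACGTG, and drives genes for ribosome production, nucleotide synthesis and cell division. Adult liver expresses neither at a high level, and liver cancers often switch on fetal liver genes such as H19, Igf2 and Afp.

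The values were fragments per kilobase of transcript and per 1e6 reads (FPKM), which set a transcript's reads against its length and the size of its library, so that levels of different genes can be compared per length. A gene near its detection limit can be read only to the nearest read. From the smallest steps of the values, the 5 libraries held an estimated 22.5, 23.8, 21.5, 22.7 and 21.2 M assigned reads (M, 1e6) in tumors 1 to 5, so 1 read on a 1 kb transcript was worth 0.0421 to 0.0473 FPKM. Depth was thus similar in all 5. Of 52459 genes in the table, 10988 had a mean of at least 1 FPKM over the 5 tumors, and these were used for all statements on spread and order. Liver identity was plain: albumin, the main plasma protein, stood at 6402, 7147, 5057, 1313 and 6118 FPKM in tumors 1 to 5. In bulk tissue, fewer cells of a type and less RNA per cell cannot be told apart.

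The Twist1 gene (chr12:33957671-33959829, + strand, GRCm38) was among the 20 most variable of the 6501 genes with a mean of at least 5 FPKM. Twist1 stood at 2.56, 26.1, 77.2, 1.62 and 2.21 FPKM in tumors 1 to 5, which is about 94, 1008, 2701, 60 and 76 reads. The highest and lowest tumors were 47.6-fold apart, and the SD of log2 FPKM was 2.46. Tumor 3 was highest, tumor 2 second, and tumors 1, 4 and 5 sat together at the bottom. Their 95% exact Poisson intervals, which cover counting error only, were 2.07 to 3.13, 1.24 to 2.09 and 1.74 to 2.76 FPKM and overlapped. The order of these 3 tumors was therefore not resolved at this depth. In the 5 *MYC*-HCC samples Twist1 lay between 0 and 0.29 FPKM, so the lowest *MYC*/*Twist1*-HCC tumor was still above the highest of them. Reads from the transgene and from the endogenous gene cannot be told apart in these values, since the transgene carries the mouse cDNA.

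Myc (chr15:61985391-61990374) was high in every tumor and varied little. Myc stood at 233, 238, 252, 357 and 225 FPKM in tumors 1 to 5, an SD of log2 FPKM of 0.27. Tumor 4 was highest by a clear margin and the other 4 tumors lay within a narrow band, where the counting intervals of tumors 1 and 2 (229 to 237 and 234 to 241 FPKM) overlapped. The sources used here did not state which species' *MYC* the transgene carries, and reads from a human sequence would match the mouse gene only in part. The tumor with the most Myc was among the 3 with little Twist1.

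**Figure D1:**
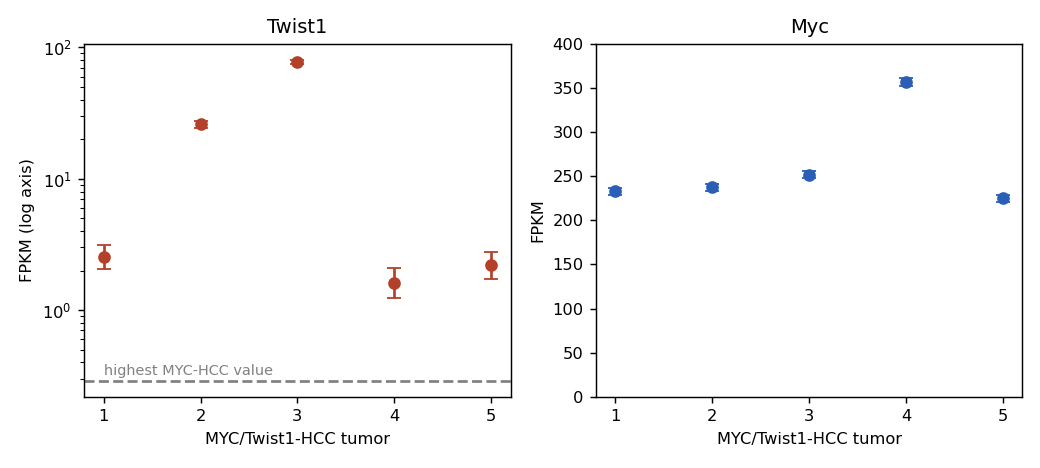
FPKM of Twist1 (log axis) and Myc (linear axis from 0) in each of the 5 *MYC*/*Twist1*-HCC tumors, with bars for the 95% counting interval and a dashed line at the highest *MYC*-HCC value of Twist1. Twist1 runs from 1.62 FPKM in tumor 4 to 77.2 in tumor 3, whereas Myc stays between 225 and 357.

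The factors that pair with TWIST1 did not track its level. Tcf3, which encodes the E proteins E12 and E47, stood at 19.2, 22.1, 21.2, 25.2 and 14.1 FPKM in tumors 1 to 5. Tcf12, another E protein, lay between 3.41 and 4.39 FPKM. Id2, an inhibitor that binds E proteins and keeps them off DNA, stood at 31.9, 33.05, 25.8, 28.5 and 67.3 FPKM and was highest in tumor 5, apart from the other 4. Id1 and Id3, its relatives, lay between 4.57 and 9.62 FPKM and between 0.87 and 2.72 FPKM. Twist2, the closest relative of Twist1, was listed at 0 in all 5 tumors. Of the 10 genes in this list, 6 passed the filter of 1 FPKM, and Twist1 alone had an SD of log2 FPKM of at least 1.

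The partners and antagonists of MYC differed in how much they varied. Max, the obligate partner, stood at 22.9, 22.6, 23.9, 30.3 and 20.8 FPKM in tumors 1 to 5, with tumor 4 highest as for Myc. Mnt, a repressor that competes for MAX, stood at 10.5, 14.4, 6.57, 12.6 and 9.76 FPKM and was lowest in tumor 3. Mxd1, Mxd3 and Mxd4, repressors of the MAD family, ranged from 1.08 to 7.02 FPKM, and Mxi1, of the same family, from 11.6 to 14.5. Mlx, which pairs with glucose-sensing relatives of MYC, stood at 14.96, 16.3, 21.6, 18.2 and 21.4 FPKM. Mnt, Mxd1, Mxd3 and Mxd4 had SDs of log2 FPKM of 0.43, 0.46, 0.46 and 0.42. The mean level of the 10 measured members had the lowest SD of all 46 gene lists with at least 3 measured members, 0.08 on the log2 scale, as a mean over members with different orders.

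Genes that encode the other transcription factors of epithelial-mesenchymal transition were low. Snai1 stood at 3.20, 0.86, 1.92, 2.23 and 2.22 FPKM in tumors 1 to 5, and was lowest in tumor 2 and highest in tumor 1. Zeb1 stood at 1.75, 1.82, 1.99, 1.37 and 1.37 FPKM, the order of Twist1 but for a tie of tumors 4 and 5, over a far narrower range. Zeb2 did not have that order, at 1.11, 0.60, 0.54, 1.15 and 1.65 FPKM. The other 3 of the 6 fixed genes had means under 1 FPKM. Mesenchymal genes were led by Fn1, which encodes fibronectin and is also made by hepatocytes, at 104, 153, 51.1, 46.3 and 147 FPKM. Sparc, a matrix-binding glycoprotein, stood at 94.98, 82.7, 49.6, 33.1 and 43.1 FPKM. Postn, the matricellular protein periostin, was lowest in tumor 2 at 0.26 FPKM and highest in tumor 1 at 2.38. Acta2, the smooth muscle actin of activated stellate cells, was highest in tumor 3, at 5.18, 1.94, 7.21, 2.89 and 5.18 FPKM. Of the 7 measured mesenchymal genes 4 were highest in tumor 1, against 8.86% of all genes tested.

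Several epithelial genes differed between the 2 tumors with the most Twist1. Cldn6, a claudin of embryonic epithelia, stood at 59.3, 152, 1.08, 21.8 and 14.98 FPKM in tumors 1 to 5. Epcam, an adhesion molecule of fetal and progenitor epithelium, stood at 6.15, 23.8, 0.62, 5.37 and 10.8 FPKM. Both were highest in tumor 2 and lowest in tumor 3. Cldn3, a claudin of tight junctions, was high in tumor 2 alone, at 1.69, 22.5, 0.89, 1.15 and 0.90 FPKM. Dsp, the desmosomal plaque protein desmoplakin, stood at 5.66, 11.7, 2.53, 1.75 and 7.97 FPKM, with tumor 2 again highest and tumor 4 lowest. Other members had other orders. Cldn7, a further claudin, was highest in tumor 1, at 12.2, 8.96, 3.89, 2.51 and 5.78 FPKM, and Krt18, a keratin of simple epithelia and hepatocytes, in tumor 5, at 158, 269, 155, 126 and 281. Cdh1, which encodes E-cadherin and was named after its values were seen, stood at 94.4, 76.1, 71.2, 69.6 and 105 FPKM and varied little. Of the 11 measured epithelial genes, 4 were highest in tumor 2, against 23.9% of all genes tested, and 5 were lowest in tumor 3, against 20.4%.

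The most abundant transcript in every tumor was H19, an imprinted noncoding RNA of fetal liver that is nearly silent in the adult. H19 (chr7:142575529-142578143) stood at 13909, 10247, 14307, 16309 and 20934 FPKM in tumors 1 to 5, or 4.06% to 6.65% of all FPKM in a library. Igf2, its reciprocally imprinted neighbour and a fetal growth factor, stood at 2634, 1696, 2099, 1596 and 2191 FPKM and ranked among the 20 most abundant genes. Afp, alpha-fetoprotein, the plasma protein of fetal liver, stood at 2682, 6156, 1896, 970.1 and 4031 FPKM. H19 and Igf2 were high everywhere, with SDs of log2 FPKM of 0.37 and 0.29, while Afp had an SD of 1.02, with tumor 2 highest and tumor 4 lowest.

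Mitochondrial transcripts and secreted plasma proteins made up most of the other leading genes. mt-Nd1, a subunit of respiratory complex I, stood at 13219, 5843, 10639.6, 11191 and 13461 FPKM in tumors 1 to 5, and mt-Cytb, of complex III, at 9955, 5902, 7665, 10228 and 13557. Tumor 2 had the least of both. The mitochondrially encoded genes held 17.3%, 10.7%, 11.7%, 14.97% and 16.3% of all FPKM. mt-Co3 and mt-Atp6, which every cell transcribes from the same genome, were listed at 0 in all 5 tumors, so these zeros describe the counting and not the cells. Ahsg, the serum glycoprotein fetuin-A, stood at 3958, 1675, 2746, 1313 and 4249 FPKM, Ttr, the carrier of thyroid hormone and retinol-binding protein, at 1905, 680.2, 1694, 1032 and 2058, and Gc, the vitamin D-binding protein, at 1435, 814, 1659, 1115 and 1368. Apoa1, Apoa2 and Apoe, the lipoprotein components, had means of 2247, 2314 and 1695 FPKM. Selenop, which carries selenium in plasma, Fth1, the ferritin heavy chain, and Rpl4, a protein of the large ribosomal subunit, completed the top 20 with mt-Co1, mt-Nd2, mt-Nd4, mt-Nd5 and mt-Nd6.

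The list of leading genes was shared, whereas the weight it carried was not. Of each tumor's own 20 most abundant genes, 18 to 20 were among the 20 of the mean. The 10 most abundant genes held 25.3%, 19.7%, 18.6%, 20.9% and 26.2% of all FPKM in tumors 1 to 5, lowest in tumors 2 and 3, and the 50 most abundant held 31.1% to 41.4%. Albumin was the widest of the top 20 together with Afp, and tumor 4 was lowest for both.

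Most genes differed little. The median SD of log2 FPKM over the 10988 genes was 0.32, with quartiles of 0.22 and 0.49. An SD of at least 1 was found for 742 genes, or 6.75%, and an SD of at least 2 for 118. Of the 720 variable genes whose reads could be estimated, 668 had an SD more than 3 times the SD that counting alone would give, so counting error was small beside the spread of most of them. The variable genes were highest in tumors 1 to 5 for 145, 208, 137, 69 and 183 genes, and lowest for 70, 264, 185, 113 and 110. Tumor 2 was thus the most frequent extreme in either direction, though not for most genes, and tumor 4 was seldom the highest. Of the 205 variable genes with a position that were highest in tumor 2, 31 lay in the chromosome 2 region described below.

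**Figure D2:**
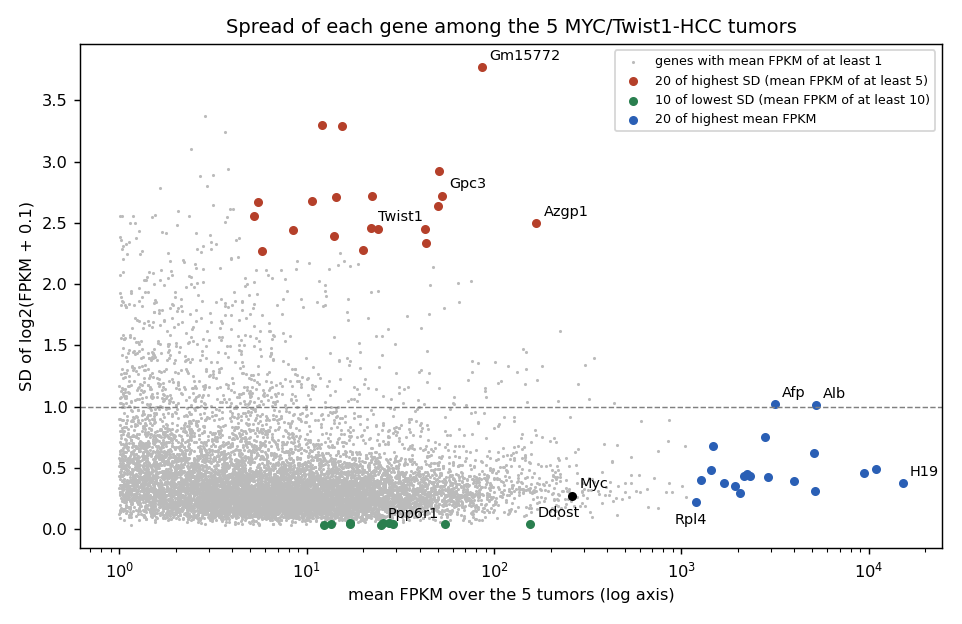
SD of log2(FPKM + 0.1) over the 5 tumors against mean FPKM (log axis) for the 10988 genes with a mean of at least 1 FPKM, with named genes labelled. Most points lie near the median SD of 0.32, while Twist1 (2.46) and Gpc3 (2.72) sit near the top and Myc (0.27) lies under the median.

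The most variable genes with a mean of at least 5 FPKM fell into a few kinds. Gpc3, the cell-surface proteoglycan glypican-3 of fetal liver and hepatocellular carcinoma, stood at 71.99, 171, 17.2, 2.29 and 2.92 FPKM in tumors 1 to 5. It was high in tumors 1 and 2 and at least 5-fold lower in tumors 4 and 5 than in tumor 3. Azgp1, a secreted lipid-mobilizing glycoprotein, was lowest in tumors 1 and 2 instead, at 20.1, 7.24, 288, 134 and 389 FPKM. Gstm3, a glutathione transferase, stood at 15.6, 5.55, 187, 3.49 and 4.69 FPKM, and Aldh1a7, an aldehyde dehydrogenase, at 4.98, 9.41, 101, 2.45 and 1.08. Tumor 3 was far above the other 4 for both. Ces1c, a carboxylesterase secreted into plasma, was highest in tumor 3 and lowest in tumor 5, at 29.3, 16.03, 50.2, 2.76 and 1.12 FPKM.

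Tumor 2 stood alone for several other variable genes. Slc13a3, a transporter of dicarboxylates, stood at 2.64, 66.9, 0.72, 0.73 and 0.90 FPKM in tumors 1 to 5. Nup62cl, a relative of a nuclear pore protein, stood at 0.22, 48.4, 1.17, 1.28 and 2.26 FPKM. Plod2, which hydroxylates lysines of collagen, stood at 0.39, 23.4, 0.28, 1.62 and 0.26 FPKM. For each of these, tumor 2 was at least 10-fold above the next tumor. Tumor 1 stood alone for 1700029F12Rik, at 23.9, 0.85, 0.04, 1.89 and 0.95 FPKM.

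Blood cell genes made up another group, all highest in tumor 1 and lowest in tumor 5. Ngp and Camp, granule proteins of maturing neutrophils, stood at 166, 26, 9.18, 10.3 and 1.47 and at 57.2, 8.22, 2.03, 2.03 and 0.69 FPKM in tumors 1 to 5. Car1, the carbonic anhydrase of red cells, stood at 24.6, 13.1, 1.34, 3.10 and 0.27 FPKM. Hemgn, a nuclear protein of red cell precursors, stood at 18.6, 7.10, 1.26, 1.45 and 0.23 FPKM.

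A further group of variable genes had a near-identical copy, and their values are uncertain as measures of the named gene. Reads of Rpl26, a ribosomal protein, and of Gm15772, a transcribed pseudogene for which RefSeq lists Rpl26 as a synonym, were 53 and 1499 in tumor 1, 78 and 1301 in tumor 2, 3993 and 2 in tumor 3, 2202 and 884 in tumor 4, and 1667 and 619 in tumor 5. The share of their sum given to Rpl26 was thus 3.41%, 5.66%, 99.9%, 71.4% and 72.9%. Eif5al3-ps, a pseudogene of the translation factor gene Eif5a, stood at 0.20, 0.38, 46.1, 19.8 and 11 FPKM. Tumor 3 was at one extreme for each of these genes. Whether the tumors differ in sequence or in expression there was not tested. AC154335.2, for which the files give no role, stood at 17.6, 19.1, 22.9, 0.14 and 0.30 FPKM.

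The least variable genes with a mean of at least 10 FPKM were broadly expressed genes. Ppp6r1, a regulatory subunit of protein phosphatase 6, stood at 24.6, 23.9, 25.1, 25.3 and 24.9 FPKM in tumors 1 to 5, an SD of log2 FPKM of 0.03. Ppp6c, the catalytic subunit of the same phosphatase, stood at 13.7, 13.2, 13.8, 13.9 and 13.1 FPKM and was also among the 10. Ddost, a subunit of the enzyme that attaches sugars to nascent proteins, stood at 155, 157, 157, 149 and 159.7 FPKM. Snapin, Zwint, Ywhag, Mgrn1, Npc2, Gmpr2 and Ehmt2 completed the 10, which differed by 1.06-fold to 1.08-fold between the highest and lowest tumor. Such evenness was uncommon.

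Many of the genes that were highest by a wide margin in tumor 2 were neighbours on chromosome 2. The positions were read after the values were seen, and the genes named here were chosen for them. From Srsf6 to Pfdn4 (chr2:162931528-170519123, GRCm38, 7.59 Mb), 75 genes had a mean of at least 1 FPKM, and 65 of them, or 86.7%, were at least 2-fold above the median of the other 4 tumors in tumor 2. Among all 10801 genes with a position, 4.71% were. The members of the region were chosen by this same measure, so the count describes the region and tests nothing. The median ratio in the region was 2.02 on the log2 scale, or 4.06-fold, with quartiles of 1.57 and 2.37. The same genes had medians of -0.22, -0.06, -0.09 and -0.01 in tumors 1, 3, 4 and 5. The ends of the region were set from these same values, each at a gene past the 2-fold limit. Of the 20 measured genes before the region none was 2-fold higher in tumor 2, at a median log2 ratio of 0.05. Of the 20 after it 1 was, at a median of -0.10.

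Genes of many functions and levels lay in that region. Ube2c, which marks mitotic proteins for degradation, stood at 54.3, 241, 66.3, 60.4 and 31.9 FPKM in tumors 1 to 5. Cse1l, which returns importin alpha to the cytoplasm, stood at 35.8, 215, 42.6, 44.1 and 23.7 FPKM, and Ywhab, a 14-3-3 adaptor protein, at 75.9, 314, 86.1, 86.2 and 74.9. For all 3, tumor 2 lay at least 3-fold above each of the other 4 tumors. Mybl2, a transcription factor of the cell cycle, stood at 6.53, 35.1, 9.51, 10.4 and 4.64 FPKM. Zfp217, a zinc finger factor whose human counterpart is amplified in some cancers, stood at 4.39, 21.2, 3, 3.70 and 4.74 FPKM, and Sall4, a factor of embryonic stem cells and fetal liver, at 7.28, 25, 4.10, 7.81 and 5.60. Pard6b, a polarity protein, stood at 6.41, 57.4, 6.65, 6.26 and 8.40 FPKM. Cebpb, a liver and inflammatory transcription factor, stood at 8.85, 33.8, 12.8, 6.08 and 10.6 FPKM. Hnf4a, the central hepatocyte transcription factor, was highest in tumor 2 too but by under 2-fold, at 122, 205, 139, 110.1 and 160.3 FPKM. Slc13a3, named above, also lay there.

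Not all genes of the region were higher. Of the 10 of the 75 that did not pass, 8 were within 2-fold of the median and 2 were at least 2-fold lower. Those 2 were Gtsf1l and Snai1, the latter described above with its lowest value in tumor 2. Wfdc5, of the whey acidic protein family of protease inhibitors, stood at 12.1 FPKM in tumor 2 and was listed at 0 in the other 4. In all, 67 of the 75 genes were higher in tumor 2 than in each of the other tumors. Of all genes with a position, 24.2% were highest in tumor 2. Of the 23 genes with a mean of at least 5 FPKM that were highest in tumor 2 and at least 4-fold above the next tumor, 16 lay in the region and 7 did not. The number of DNA copies of the region was not analysed here.

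**Figure D3:**
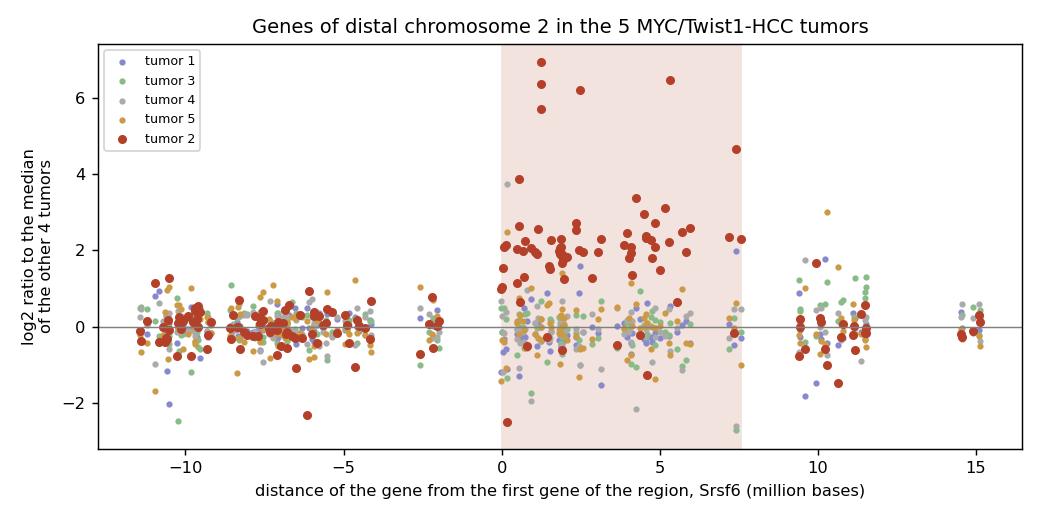
Log2 ratio of each tumor to the median of the other 4 for measured genes of distal chromosome 2, against distance from Srsf6 in Mb. The region of 7.59 Mb is shaded. In the shaded stretch the points of tumor 2 centre on 2.02, whereas on both sides they centre near 0. In that stretch the points of tumors 1, 3, 4 and 5 have medians between -0.22 and -0.01.

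The only other stretch found in the same way lay on chromosome 12 and was lower in tumor 4. It spans 10 genes of the serpin cluster from Serpina10 to Serpina12 (chr12:103614786-104044443). Of these, 9 were at least 2-fold under the median of the other tumors in tumor 4, against 4.04% of all genes with a position. The stretch was chosen by this same measure, so the count describes it and tests nothing. Serpina6, which encodes the carrier of corticosteroids in plasma, stood at 374, 229, 533, 61.5 and 209 FPKM in tumors 1 to 5. Serpina1c, a copy of the alpha-1-antitrypsin gene, stood at 189.9, 48.3, 149, 75.6 and 287 FPKM, where tumor 2 was lower still. Copies of Serpina1 are near-identical, so reads may be shared among them. Whole chromosomes varied less: over the 20 chromosomes other than Y and the 5 tumors, 98 of 100 median log2 ratios lay within 0.2 of 0.

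The secreted and metabolic genes of hepatocytes were unevenly kept. Tumor 4 was lowest for 9 of the 17 secreted plasma proteins, against 15.7% of all genes tested, and tumor 5 was highest for 10 of them, against 23.6%. Apob, the scaffold of very low density lipoprotein, stood at 198, 276, 107, 66.04 and 179 FPKM in tumors 1 to 5. Of the 19 measured complement and coagulation genes, tumor 4 was lowest for 11 and tumor 5 highest for 8. Fga, the fibrinogen alpha chain, stood at 718, 937, 735, 714 and 2132 FPKM. C9, the pore-forming complement component, ran in another order, at 18.5, 10.9, 0.80, 0.84 and 1.65 FPKM, and Masp1, a protease that starts the lectin pathway, was lowest in tumor 4, at 18.1, 30.2, 16.1, 2.30 and 15.04.

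Tumor 2 was often the lowest for metabolic genes. It was lowest for 10 of the 12 measured cytochrome P450 and bile acid genes, against 22.5% of all genes tested. Cyp3a11, a major drug-metabolizing P450, stood at 33.7, 1.47, 49.8, 5.78 and 3.11 FPKM in tumors 1 to 5, and Cyp2e1, the ethanol-metabolizing P450 of the zone around the central vein, at 39.1, 1.07, 7.76, 11.9 and 2.78. Abcb11, the bile salt export pump, stood at 43.2, 7.31, 62.1, 24.6 and 60.8 FPKM. Of the 15 urea cycle and amino acid genes, tumor 3 was highest for 10, against 26.6% of all genes, and tumor 2 was lowest for 6. Cps1, the first enzyme of the urea cycle, stood at 255, 23.3, 367, 177 and 306 FPKM, so tumor 2 was at least 7-fold under each of the others. Tdo2, which starts tryptophan breakdown, stood at 3.94, 0.18, 15.9, 1.24 and 0.35 FPKM. Fbp1, an enzyme of glucose production, stood at 6.31, 1.14, 45.9, 2.43 and 2.39 FPKM, with tumor 3 far above the rest, whereas G6pc, which releases glucose from the cell, was highest in tumor 4, at 9.23, 0.61, 11.5, 36.1 and 21.3. The 2 tumors with the most Twist1 were thus at opposite ends of this group.

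Acute phase and metal-binding genes were often lowest in tumor 2 too. Of the 13 measured acute phase genes 7 were lowest there, against 22.5% of all genes tested. Hamp, the iron-regulating hormone hepcidin, stood at 91.7, 19.3, 84.2, 51.9 and 261 FPKM in tumors 1 to 5, and Saa1, serum amyloid A, at 3.69, 0.15, 0.49, 0.80 and 1.26. Itih4, an inflammation-responsive plasma protein, was lowest in tumor 4 instead, at 180.2, 87.9, 255, 25.01 and 117 FPKM. Mt1 and Mt2, the metal-binding metallothioneins, stood at 387, 118, 839, 479 and 357 and at 149, 31.2, 361, 234 and 126 FPKM, lowest in tumor 2 and highest in tumor 3.

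Cholesterol synthesis genes and most oncofetal genes ran the other way. Tumor 2 was highest for 9 of the 11 measured cholesterol genes, against 23.9% of all genes, and tumor 5 lowest for 10, against 27.8%. Sqle, an enzyme that limits the pathway, stood at 18.3, 32.3, 11.4, 14.3 and 7.84 FPKM in tumors 1 to 5. Of the 12 measured oncofetal genes, 9 were highest in tumor 2. An SD of log2 FPKM of at least 1 was found for 7 of them, against 6.75% of all genes tested. H19, the most abundant member, was instead lowest in tumor 2, at 10247 FPKM. Igf2bp1, an RNA-binding protein of fetal tissue, stood at 7.31, 9.96, 0.10, 2.63 and 0.20 FPKM. Rian and Meg3, imprinted noncoding RNAs of the same cluster, stood at 2.69, 14.4, 3.64, 1.40 and 0.33 and at 2.15, 12.3, 1.32, 1.16 and 0.41 FPKM, highest in tumor 2. Peg10, an imprinted gene derived from a retrotransposon and named after its values were seen, did not share this order, at 19.8, 110.5, 176, 103 and 301 FPKM.

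**Figure D4:**
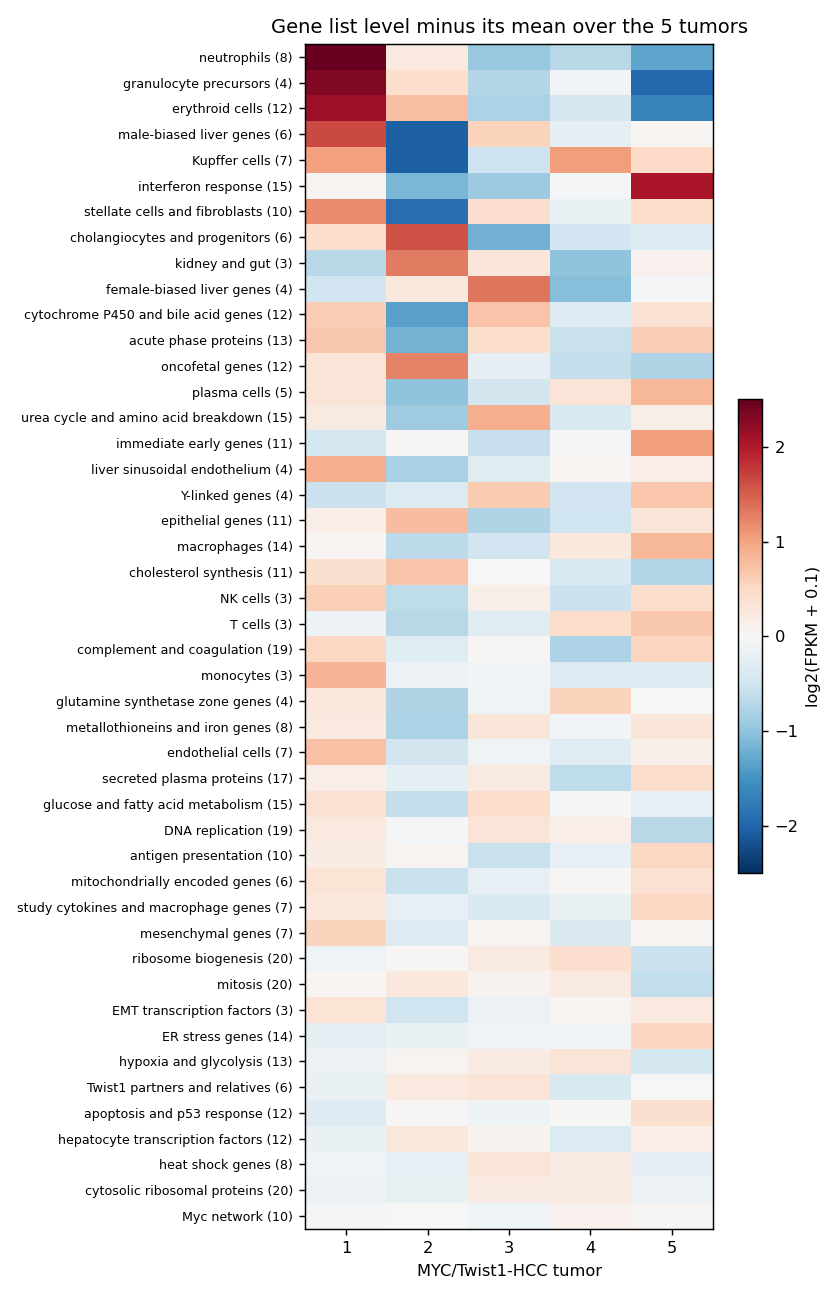
Mean log2(FPKM + 0.1) of each gene list in each tumor, minus its mean over the 5 tumors, for the 46 lists with at least 3 measured members (their number in brackets), ordered by the SD over tumors. Neutrophil genes differ most (SD 1.61) and the Myc network least (0.08), and tumor 5 stands above the other 4 tumors for the interferon response list.

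Genes of ribosome production, DNA replication and mitosis were lowest in tumor 5 almost without exception, against 27.8% of all genes. All 20 ribosome biogenesis genes were lowest in tumor 5, and 13 were highest in tumor 4, against 16.7% of all genes tested. Npm1, the nucleolar chaperone nucleophosmin, stood at 270.3, 268, 306, 428 and 237 FPKM in tumors 1 to 5. Srm, spermidine synthase and a known MYC target, stood at 183, 170.3, 311, 280.1 and 133 FPKM, and Odc1, the first enzyme of polyamine synthesis, at 19.7, 23.8, 34.1, 28.6 and 13.8. Of 19 DNA replication genes and of 20 mitosis genes, 18 each were lowest in tumor 5. Mcm5, a subunit of the replicative helicase, stood at 31.5, 22.5, 36.3, 28.2 and 13.2 FPKM, Rrm2, of the enzyme that makes deoxynucleotides, at 57.2, 21.6, 53.1, 57.6 and 26.4, and Bub1, a kinase of the spindle checkpoint, at 12.3, 18.4, 13.6, 11.7 and 6.09. Cytosolic ribosomal protein genes did not share this pattern, with 9 of 20 lowest in tumor 2, against 22.5% of all genes, and 9 highest in tumor 4. Tumor 5 had the lowest Myc value as well, but its Myc lay only a little under that of tumor 1.

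Interferon, immediate early and ER stress genes were highest in the same tumor. Over all genes, 23.6% were highest in tumor 5. All 15 interferon response genes were highest in tumor 5, 11 of them with an SD of at least 1, against 6.75% of all genes. Cxcl10, a chemokine that draws T cells, stood at 14.2, 4.04, 2.56, 7.19 and 81.7 FPKM in tumors 1 to 5, and Ifit1, which binds viral RNA, at 1.45, 0.44, 0.79, 1.59 and 19.7. Immediate early genes were highest in tumor 5 for 10 of 11, among them Atf3, a stress-induced transcription factor, at 2.84, 7.48, 3.63, 10.2 and 22.6 FPKM, and Jun, a component of AP-1, at 8.40, 13.3, 9, 19.7 and 39.1. ER stress genes were highest there for 11 of 14, with Xbp1, a factor of the unfolded protein response, at 49.7, 50.9, 53.05, 53.4 and 115 FPKM. Of 12 apoptosis and p53 response genes 9 were highest in tumor 5. Heat shock genes differed from these lists, with 4 of 8 measured members lowest in tumor 5, against 27.8% of all genes, among them Hspd1, the mitochondrial chaperonin, at 192, 200.1, 247, 256 and 144 FPKM.

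Macrophage genes were highest in that tumor too. All 14 macrophage genes passed the filter, and their summed FPKM was 606, 415, 556, 846 and 1322 in tumors 1 to 5. Of these 14, 12 were highest in tumor 5 and 9 lowest in tumor 2. The shares of all genes tested were 23.6% highest in tumor 5 and 22.5% lowest in tumor 2. Lyz2, the lysozyme of myeloid cells, stood at 149, 91.5, 175, 227 and 349 FPKM, and Fcgr1, a high-affinity antibody receptor that interferon induces, at 1.46, 0.78, 1.11, 2.14 and 8.97. Kupffer cell genes, which mark the resident macrophages of the liver, had another order, with all 7 measured members lowest in tumor 2. Clec4f, their most specific lectin, stood at 8.69, 0.02, 2.09, 3.63 and 1 FPKM, and Vsig4, their complement receptor, at 12.1, 0.23, 1.47, 9.16 and 3.86. Cd5l, which macrophages secrete, stood at 134, 21.9, 90.02, 209 and 288 FPKM. Tumor 5 thus had the most of the general markers but not the most of Clec4f and Vsig4. The part of these cells in the interferon and stress values was not tested.

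Of the 13 genes of a list of cytokines, macrophage genes and other genes that the study followed, 6 had a mean under 1 FPKM in these tumors. Ccl2, the chemokine that recruits monocytes, stood at 1.68, 1.59, 0.53, 1.43 and 1.41 FPKM in tumors 1 to 5. Its lowest value was in tumor 3, which had the most Twist1. Il13, a cytokine of type 2 immunity, was listed at 0 in tumors 1, 2, 3 and 5 and at 0.04 FPKM in tumor 4. Cxcl1, which attracts neutrophils, stood at 1.89, 1.41, 1.59, 1.17 and 7.59 FPKM and was highest in tumor 5. Mrc1, the mannose receptor of alternatively activated macrophages, stood at 7.68, 4.99, 3.83, 6.14 and 11.2 FPKM, and Ccl5, a T cell chemokine, at 5.22, 2.19, 2.47, 5.13 and 7.09. Arg1, another gene used to mark such macrophages, stood at 157, 99.5, 210.1, 78.1 and 82.9 FPKM and is also an enzyme of the hepatocyte urea cycle. None of the 7 that passed the filter had the order of Twist1. That order held only 0.655% of all genes tested, so its absence among 7 genes says little.

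Blood and stromal markers set tumor 1 apart. Erythroid genes were highest in tumor 1 for 11 of 12, against 8.86% of all genes tested. They were lowest in tumor 5 for 10, against 27.8%. Hbb-bs, a beta-globin, stood at 1058, 249, 150.1, 173 and 78.02 FPKM in tumors 1 to 5, and Slc4a1, the anion exchanger of the red cell membrane, at 45.6, 20.6, 3.54, 5.11 and 0.73. Neutrophil genes were highest in tumor 1 for 7 of 8, with S100a9, a calcium-binding protein of these cells, at 292, 40.6, 16.1, 20.1 and 6.98 FPKM. Precursor genes had a like pattern: Elane, the elastase of promyelocytes, stood at 15.2, 3.68, 0.99, 1.43 and 0.14 FPKM, and Mpo, the peroxidase of the same cells, at 12.04, 3.53, 0.65, 0.76 and 0.18. Prtn3, a protease of the same granules, did not, at 11.04, 3.16, 7.04, 21.5 and 6.94 FPKM. Platelet genes Pf4 and Ppbp were also highest in tumor 1, at 11.4 and 24.5 FPKM, and lowest in tumor 5, at 0.33 and 0.31.

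Stromal genes were lowest in tumor 2. Among all genes tested, 22.5% were lowest in tumor 2 and 8.86% were highest in tumor 1. Of 10 measured stellate cell and fibroblast genes, all 10 were lowest in tumor 2 and 9 were highest in tumor 1. Col1a1, the main fibrillar collagen, stood at 12.3, 1.18, 11.6, 6.23 and 8.43 FPKM in tumors 1 to 5, and Dcn, the proteoglycan decorin, at 11.6, 0.73, 4.07, 3.59 and 8.03. Of 7 endothelial genes 6 were highest in tumor 1 and 5 lowest in tumor 2. Cdh5, the cadherin of endothelial junctions, stood at 20.6, 5.28, 7.27, 7.41 and 8.52 FPKM, and Lyve1, of sinusoidal endothelium, at 3.24, 0.29, 1.42, 1.67 and 0.53. Tumor 1 was the lowest of the 5 for 13% of all genes tested, the smallest such share.

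T, NK and B cell genes were low in all 5 tumors. Of 10 T cell genes 3 passed the filter, of 8 NK cell genes 3, and of 7 B cell genes 1. Cd4, a coreceptor of helper T cells that some macrophages also carry, stood at 1.53, 2.16, 1.36, 3.67 and 5.11 FPKM in tumors 1 to 5. Plasma cell genes were higher, with 5 of 9 past the filter and summed FPKM of 61.5, 34.1, 39.5, 53.1 and 95.5. Igkc, the kappa light chain of antibodies, stood at 30.2, 4.03, 12.6, 24.6 and 54.6 FPKM and was lowest in tumor 2. None of the 8 dendritic cell genes had a mean of 1 FPKM.

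Of 6 measured bile duct and progenitor genes 3 were highest in tumor 2, against 23.9% of all genes. Krt7, a keratin of bile ducts, stood at 0.37, 7.48, 0.16, 0.19 and 0.46 FPKM in tumors 1 to 5, and Prom1, a stem and progenitor marker, at 0.14, 4.90, 0.02, 0.06 and 0.09. Both were near 0 outside tumor 2. Cd24a, a surface protein of progenitors and of blood cell precursors, stood at 52.05, 22.8, 4.63, 4.60 and 1.08 FPKM and was highest in tumor 1. Foxa1, a pioneer factor of fetal liver, stood at 0.77, 9.12, 1.71, 0.26 and 0.16 FPKM, again high in tumor 2 alone.

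Tumor 2 was least like the others across all genes, and its 4 pairs had the 4 lowest values. Pearson's r of log2(FPKM + 0.1) across the 10988 genes had a median of 0.913 over the 10 pairs of tumors, where genes are not independent replicates. The closest pair was tumors 1 and 4, at 0.938 with 922 genes at least 2-fold apart, and the farthest was tumors 2 and 5, at 0.866 with 1897. Tumors 2 and 3, with the most Twist1, stood at 0.883 with 1621 genes 2-fold apart, so they were less alike than the median pair.

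Whether other genes followed Twist1 was described by order. With 5 tumors, a rank correlation can take few values, and the smallest two-sided exact p of a full match is 0.0167, too large to survive adjustment over so many genes. Genes were therefore counted by whether their FPKM put the 5 tumors in the same order as Twist1, tumor 4 lowest, then 5, 1, 2 and 3, or in the reverse. The same order was found for 72 of 10987 other genes, or 0.655%, and the reverse for 54, or 0.491%. There are 120 orders, and the median order held 69 of the 10706 genes without ties, with 19 to 347 genes in an order. The order of Twist1 was thus about as common as the median order.

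**Figure D5:**
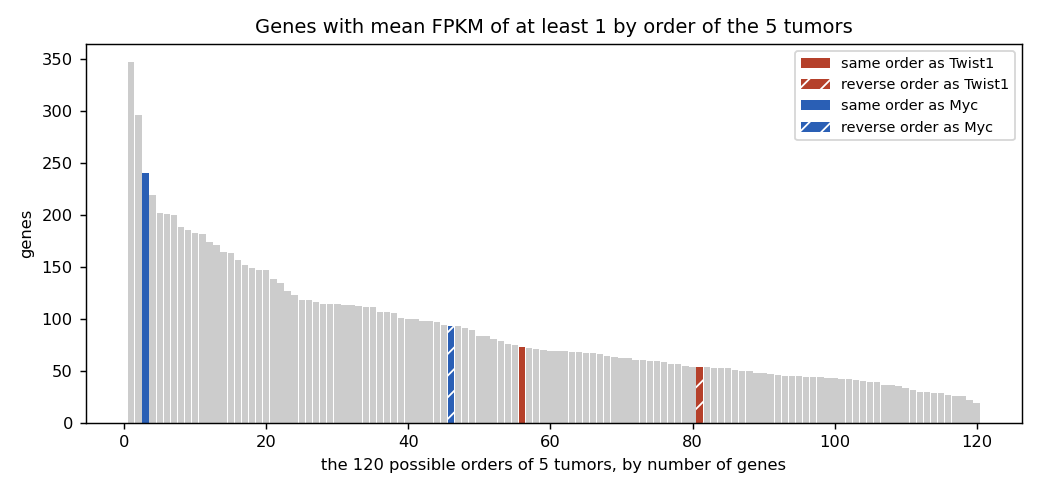
Number of genes in each of the 120 possible orders of the 5 tumors, sorted from the most to the least common, with the orders of Twist1 and Myc and their reverses coloured. Myc's order is the third most common, with 240 genes including Myc, whereas that of Twist1, with 73 including Twist1, ranks in the middle.

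Most genes in the order of Twist1 had a range far under that of Twist1. Their median fold between the highest and lowest tumor was 1.70, and 1.79 for the reverse order, against 1.74 for all genes. An SD of at least 1 was found for 11 of the 72 and 4 of the 54, against 6.75% of all genes tested. The likeness used to rank them was Pearson's coefficient over the 5 log2 values. Glod4, a glyoxalase-domain protein, was most like Twist1, at 6.08, 7.24, 7.91, 5.80 and 5.82 FPKM in tumors 1 to 5. Its whole range was thus 1.36-fold, against 47.6-fold for Twist1. Nckap1, a component of the WAVE complex that drives actin branching, stood at 22.2, 23.9, 24.9, 21.1 and 21.4 FPKM, and Cbx8, a Polycomb protein, at 0.93, 1.24, 1.58, 0.74 and 0.82. Nckap1 thus varied little, and Cbx8 was low throughout. Cdc26, a subunit of the anaphase-promoting complex, stood at 2.26, 2.54, 2.83, 2.18 and 2.21 FPKM, and Dph3, which serves the modification of an elongation factor, at 4.78, 5.28, 5.82, 4.36 and 4.40. Pdcd6, a calcium-binding protein, stood at 21.1, 24.1, 28.4, 20.82 and 20.84 FPKM, so its order too rests on a small step. Ube2d-ps, Adck5 and C330018D20Rik were among the same 10.

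Clps was the only gene of the 10 with an SD of log2 FPKM of at least 1. Clps encodes pancreatic colipase, which helps lipase act on fat droplets, and stood at 5.40, 27.4, 44.2, 2.32 and 3.18 FPKM in tumors 1 to 5. The values in tumors 2 and 3 were at least 5-fold above those in tumors 1, 4 and 5. Of 15 pancreas genes, 6 were listed at 0 in all 5 tumors, among them Prss1, Prss2, Cel and Pnlip, and besides Clps only Cela1, an elastase also found outside the pancreas, passed the filter, at 4.10, 4.62, 10.8, 3.35 and 5.62 FPKM with tumor 3 highest. Since genes that every cell uses can also be listed at 0 in this table, these zeros are given as listed, and the source of the Clps reads was not tested. Other genes in this order, chosen for their wide range after their values were seen, included Abcg5, a subunit of the sterol exporter of the bile canaliculus, at 2.09, 2.64, 18.5, 0.47 and 2.08 FPKM, and Ihh, a hedgehog ligand, at 4.73, 8.60, 10.6, 0.65 and 2.22. Abcg5 was high in tumor 3 alone.

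The reverse order held fewer genes under the main settings, but more without a filter, 111 against 87. Rufy2, an endosomal adaptor, stood at 2.20, 1.54, 1.39, 2.57 and 2.33 FPKM in tumors 1 to 5, and Gse1, a subunit of a histone demethylase complex, at 5.07, 4.07, 3.58, 6.12 and 5.36. Fcho2, which starts clathrin-coated pits, stood at 7.48, 6.66, 5.32, 7.73 and 7.71 FPKM. The others of the 10 closest were mt-Tt, BC002059, Plekho2, Snord43, Ankmy2, AV099323 and Hmgb1-ps7, and mt-Tt, Snord43 and Hmgb1-ps7 are a transfer RNA, a small nucleolar RNA and a pseudogene whose counting is uncertain.

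Since the order of tumors 1, 4 and 5 was not resolved, genes were also counted by tumor 3 highest and tumor 2 second alone, a rule added after the values were seen. It held for 584 of 10987 genes, or 5.32%, which ranked 10 among the 20 possible pairs. Of these and Twist1, 11 had tumor 2 at least 2-fold above each of tumors 1, 4 and 5, and 5 had it at least 4-fold above. Those 5 were Twist1, Clps, Sult2a1, Slc24a3 and Zbtb7c. Sult2a1, a sulfotransferase of bile acids and steroids that is more abundant in female liver, stood at 0.13, 1.73, 12.5, 0 and 0.19 FPKM in tumors 1 to 5. Slc24a3, a sodium-calcium exchanger, stood at 0.10, 1.18, 5.23, 0.15 and 0.17 FPKM, and Zbtb7c, a zinc finger factor, at 0.70, 3.79, 4.47, 0.76 and 0.35. Among genes with tumor 3 highest and tumor 2 second, the step of tumor 2 that Twist1 showed was thus shared by few. Genes with tumor 2 highest were outside this count, and 69 of them had tumor 2 at least 4-fold above the next tumor.

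The order of Myc was shared by more genes. The 5 tumors in the order 5, 1, 2, 3 and 4 from lowest to highest were found for 239 of 10987 other genes, or 2.18%, the third most common order, and the reverse for 93, or 0.846%. Under median-ratio scaling these counts were 169 and 149, so the excess of the same order was much smaller. Their median fold between the highest and lowest tumor was 1.70, and 1.80 for the reverse, against 1.74 for all genes. Surf2, a nucleolar protein, was most like Myc, at 8.11, 8.74, 9.54, 14.4 and 7.52 FPKM in tumors 1 to 5. Nop14 and Esf1, which process ribosomal RNA, stood at 33.6, 35.9, 37.3, 52.6 and 30.6 and at 15.5, 15.7, 15.8, 21.6 and 14.3 FPKM. Isyna1, which makes inositol phosphate and was high throughout, stood at 90, 103, 126, 214 and 77.1 FPKM, and Zdhhc3, a palmitoyltransferase, at 5.37, 5.58, 5.72, 6.69 and 5.18. For each of these genes tumor 4 stood above the other 4 tumors, as it did for Myc. In the reverse order were Fmo4, a flavin monooxygenase of liver, at 15.2, 15.1, 13.4, 4.73 and 16.7 FPKM, and Mcoln1, a lysosomal channel, at 3.46, 3.24, 3.22, 2.41 and 3.65, with Ppp4r4, Tceal5 and Arhgef40.

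Several ribosome genes had this order. Of the 20 ribosome biogenesis genes 6 had the order of Myc, against 2.18% of all genes tested. They were Ncl, the major nucleolar protein nucleolin, at 192, 194, 222, 316 and 144 FPKM in tumors 1 to 5, Nop2, an RNA methyltransferase of the nucleolus, at 44.3, 48.8, 56.03, 65.5 and 33.1, Pes1, a ribosome assembly factor, at 30.7, 38.2, 41.3, 45.2 and 26.5, and its partner Wdr12, with Gnl3 and Rrp9. Of 20 mitosis genes 2 had it, Plk1 and Cdc20, and of 19 DNA replication genes 1, Mcm2. The ribosome genes serve one process in the same cells, so they are not separate observations, and those outside the naming rule were named after their order was seen. Among epithelial genes Cdh1 had the reverse order.

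The promoters of these genes bear on the E-box CACGTG that MYC and MAX bind, a palindrome that reads the same on both strands. The windows run from 250 bases before to 50 after the start of a gene, as RefSeq annotates it on GRCm38.p6. Of the 187 genes in the order of Myc that had a window, 37 held CACGTG, or 19.8%, against 12.3% of the 8337 tested genes with a window, 13.0% of 77 genes in the reverse order and 26.7% of 15 ribosome biogenesis genes. The windows of Surf2, Nop2 and Pes1 are shown, since these genes had the order of Myc and hold the motif, which is in capitals and starts at -20, -60 and +3 from the annotated start.
Surf2 (chr2:26916158-26916457, + strand): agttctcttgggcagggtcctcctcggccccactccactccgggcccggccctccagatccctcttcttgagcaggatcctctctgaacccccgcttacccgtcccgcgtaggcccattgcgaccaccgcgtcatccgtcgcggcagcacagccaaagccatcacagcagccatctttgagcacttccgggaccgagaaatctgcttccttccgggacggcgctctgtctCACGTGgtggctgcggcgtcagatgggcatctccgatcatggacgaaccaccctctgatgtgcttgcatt
Nop2 (chr6:125131633-125131932, + strand): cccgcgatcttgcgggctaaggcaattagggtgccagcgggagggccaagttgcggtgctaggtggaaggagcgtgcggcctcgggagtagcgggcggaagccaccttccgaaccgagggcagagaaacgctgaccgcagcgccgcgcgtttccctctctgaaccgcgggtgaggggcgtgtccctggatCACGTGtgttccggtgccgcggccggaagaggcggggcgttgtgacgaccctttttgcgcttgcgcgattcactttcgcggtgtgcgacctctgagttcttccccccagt
Pes1 (chr11:3963725-3964024, + strand): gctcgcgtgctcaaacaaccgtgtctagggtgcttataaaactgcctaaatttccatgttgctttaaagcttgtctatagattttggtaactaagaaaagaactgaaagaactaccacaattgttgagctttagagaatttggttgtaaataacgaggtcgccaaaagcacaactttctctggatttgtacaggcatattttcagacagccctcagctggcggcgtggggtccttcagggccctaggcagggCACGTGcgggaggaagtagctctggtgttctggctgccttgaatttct
A match is a description of letters and not of binding, and Nop14, Esf1, Ncl, Gnl3, Wdr12 and Rrp9 had none in their windows. For the genes in the order of Twist1, E-boxes of any kind (CANNTG, which contains CACGTG) were found for 58.8% of 51 genes with a window, against 67.1% of all tested genes. CATCTG on either strand, a form that TWIST1 is known to bind, was found for 15.7% of the 51 and for 12.9% of all, and CATATG for none of the 51 and for 1.98% of all.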

How the data were processed

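Total RNA of flash-frozen liver tumors was sequenced, and the authors deposited 1 table of FPKM values per gene and sample, with no read counts. The methods name RSEM, and per the labels the submitters' notes list Trimmomatic, STAR, Picard, featureCounts, DESeq2 and the mm10 build, without saying which made the table; unassigned and multiply mapped reads cannot be traced in it. The deposited FPKM values were taken as they stand, on log2(FPKM + 0.1), and genes with a mean under 1 FPKM over the 5 tumors were left out of spreads and orders. The added 0.1 understates the spread of low genes. Assigned reads were estimated from the step between low FPKM values on gene models of GENCODE vM21: in genes shorter than 150 bases, 98.8% to 99.7% of low values came out whole within 0.1 read. No 2 tumors held identical values.

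Genes were named by a fixed rule: Twist1, Myc and their partners, the study's cytokine genes, the 20 most abundant, the 20 most variable (mean of at least 5 FPKM), the 10 least variable (mean of at least 10), the 10 most like Twist1 in its order and in the reverse and 5 each for Myc, and of each list up to 4 members of highest SD and the member of highest mean. A gene outside it is said to be named after its values were seen, as are mt-Co3 and mt-Atp6. Some genes that the rule names are not reported here. The members and lists were chosen with earlier results of these data known, and so support nothing by themselves. Positions came from the gene models and promoters from RefSeq. Stretches of a chromosome were sought with a running median of 15 genes at a log2 ratio of at least 1 either way. The programs for spread and order were tested on simulated data. Alternatives were another constant before log2, no filter or a stricter one, median-ratio scaling, and each tumor left out in turn. Python 3.11.15, numpy 2.4.6, pandas 2.3.3, scipy 1.17.1 and matplotlib 3.10.9 were used.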

Additional observations from a re-analysis of the deposited data

Results flagged for a closer look

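Among 268 values, which included 46 list levels and 219 named genes, 26 had a tumor far from the other 4, by the gap to the nearest tumor relative to the whole range on the log2 scale. Chance flags about 1 in 20 groups, and genes named for their spread are more likely to be among them. Tumor 2 was the outlying tumor most often, highest for 9 values and lowest for 3. Genes of the chromosome 2 region were highest in tumor 2: Cse1l at 215 FPKM, Pard6b at 57.4, Slc13a3 at 66.9, Wfdc5 at 12.1, Ywhab at 314 and Zfp217 at 21.2. Of genes elsewhere, tumor 2 was highest for Cldn3 at 22.5 FPKM, Krt7 at 7.48 and Prom1 at 4.90, and lowest for Cps1 at 23.3, mt-Nd1 at 5843 and mt-Nd2 at 2242.

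Tumor 5 was highest for the level of the ER stress list, a mean log2 FPKM of 6.20, for Xbp1 at 115 FPKM, Id2 at 67.4, Fga at 2132 and Cxcl1 at 7.59, and was lowest for the level of the mitosis list, a mean log2 FPKM of 3.86. Tumor 4 was highest for Myc at 357 FPKM, Esf1 at 21.6 and Il13 at 0.04, which is a single read or so, and lowest for Fmo4 at 4.73 and Masp1 at 2.30. Tumor 3 was lowest for Ccl2 at 0.53 FPKM and for Gm15772 at 0.21. Tumor 1 was highest for the level of the monocyte list, a mean log2 FPKM of 2.62. Of the 8 genes of that list 3 passed the filter, and 1 of these was highest in tumor 1.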

How the results depend on the processing

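No paired analysis was possible because the tumors belong to one group and no test between groups was made. The 10 most abundant genes held 20.9% of FPKM in the median tumor, 15.1% without mitochondrial genes and 20.3% to 23.3% with a tumor left out. Genes with an SD of at least 1 numbered 742, with 334 when 1 was added before log2, 2156 without a filter, 252 at a mean of at least 5 FPKM, and 547 to 808 with a tumor left out, the lowest without tumor 2. Genes in the order of Twist1 numbered 72, with 41 at a mean of at least 5 FPKM, 584 when the 3 lowest tumors were not ordered (chosen after seeing the data) and 277 to 975 with a tumor left out, since 4 tumors have fewer orders. The reverse order of Twist1 held 54 genes, 111 without a filter, 21 at a mean of at least 5 and 187 to 519 with a tumor left out. The order of Myc held 239 genes, 730 when the 3 lowest were not ordered and 479 to 975 with a tumor left out. Its reverse held 93, 57 at a mean of at least 5, 149 under median-ratio scaling and 250 to 533 with a tumor left out. Median-ratio scaling put 169 genes in the order of Myc, 69 in that of Twist1 and 60 in the reverse of Twist1. Without a filter, 87 genes had the order of Twist1, against the 111 of its reverse. Lists with an SD of at least 0.5 numbered 24 of 46, and 21 to 28 with a tumor left out. The median likeness of tumor pairs was 0.913, and 0.962 without a filter. For the chromosome 2 region the count of 65 was 63 with 1 added, 49 at a mean of at least 5, 65 under median-ratio scaling and 58 against the highest other tumor, all chosen after seeing the data.

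Twist1 in tumors 1, 4 and 5 rests on 94, 60 and 76 estimated reads, which limits any order among them. With 5 tumors of one group, no value here says how a further tumor would stand, and blood, stroma and hepatocyte content cannot be told apart from levels per cell.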

Other observations

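Genes of the Y chromosome were expressed in all 5 tumors, as in male tissue, and only their level set tumors 3 and 5 apart. Ddx3y, an RNA helicase, stood at 11.7, 13.9, 26.4, 10.6 and 24.9 FPKM in tumors 1 to 5, and Eif2s3y, a translation factor, at 11.97, 13.6, 33.7, 13.2 and 29.3. Kdm5d and Uty, both related to histone demethylases, were also highest in tumors 3 and 5, so all 4 Y-linked genes separated these 2 tumors from the other 3. Xist, the RNA that coats the inactive X chromosome of females, lay between 0 and 0.02 FPKM in all 5. Sex-biased liver genes did not divide the tumors in this way. Of 6 measured male-biased genes all 6 were lowest in tumor 2, against 22.5% of all genes, among them Mup20, a major urinary protein, at 9.70, 0.05, 1.70, 0.19 and 0.10 FPKM, and Cyp4a12a, a P450 of male liver, at 20.1, 7.56, 20.98, 7.63 and 33.3. Of the female-biased genes, Cyp17a1, a steroid-synthesizing P450, stood at 2.15, 11.3, 13.7, 4.33 and 2.73 FPKM and Hao2, an oxidase, at 15.6, 1.93, 10.7, 3.35 and 17.7.

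Hypoxia and glycolysis genes were lowest in tumor 5 for 8 of 13 measured members, against 27.8% of all genes. Aldoa, a glycolytic aldolase, stood at 88.7, 122, 201, 198 and 91.3 FPKM in tumors 1 to 5, and Ldha, which makes lactate, at 283, 349.8, 409, 373 and 239. Antigen presentation genes were highest in tumor 5 for 9 of 10 and lowest in tumor 3 for 7, against 23.6% and 20.4% of all genes, with B2m, the light chain of class I molecules, at 858, 541, 703, 492 and 972 FPKM and Psmb9, of the immunoproteasome, at 1.32, 2.74, 0.70, 0.69 and 1.55. Chromosome 8 in tumor 3 had the highest chromosome median, a log2 ratio of 0.27 to the median of the other tumors.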
